A study of Homo sapiens with 24 samples.

Results

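The genes of fatty acid synthesis and desaturation followed here are the rows of the count table that carry the gene IDs of SREBF1, ACLY, ACSS2, ACACA, FASN, SCD, ELOVL6, ELOVL5, FADS1 and FADS2. They are 10 of 11927 genes or gene groups with an ID in the table, and each has 1 row. HepG2 is an established cell line from a human liver cancer. It had been transduced with a lentiviral vector carrying Cas9 and 1 of 3 guide RNAs, and transduced cells were selected with puromycin, so every group carries the vector. The control guide (sgCtrl) cuts the AAVS1 safe-harbour locus, and sgKEAP1-1 and sgKEAP1-2 cut KEAP1, the adaptor through which the transcription factor NRF2 is ubiquitinated. Each of the 3 populations received a nontargeting siRNA pool (siNC) or siRNA pools against the transcription factor genes TFEB and TFE3 (siTFEB/siTFE3), and RNA was taken after 72 hours. The 6 guide-by-siRNA groups hold 4 libraries each, and nothing in the sources says whether the 4 are separate transductions, so p-values measure the spread between these libraries.

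De novo lipogenesis turns citrate or acetate into acetyl-CoA, carboxylates it to malonyl-CoA, and builds palmitate on fatty acid synthase. Palmitate is then lengthened by elongases and made unsaturated by desaturases, of which SCD makes oleate and FADS1 and FADS2 act on polyunsaturated chains. In liver the pathway is under transcriptional control of SREBP-1c, LXR and ChREBP, while the related SREBP-2 controls cholesterol synthesis.

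Total reads per library ranged from 3527000 to 4600951. The libraries are 3′ end libraries, in which a transcript gives about 1 read whatever its length. Levels in CPM (the read count scaled to library size) were therefore compared between genes without a length correction. The annotation used for counting is not given, and whether low levels reflect reads not assigned to a gene was not tested. Hepatocyte markers were abundant in all groups as a sum, with 9 markers together between 12948 and 34412 CPM. Not each of the 9 was abundant, and SERPINA1 averaged 36.0 CPM with sgCtrl under siNC. Of 6 markers of other cell types, PTPRC, PECAM1, DCN and LUM were not in the table, and ACTA2 averaged 44.4 CPM in the same group. KEAP1 RNA averaged 84.9 ± 6.69 CPM (SD, n = 4) with sgCtrl under siNC, 53.8 ± 6.17 CPM with sgKEAP1-1 and 77.4 ± 3.89 CPM with sgKEAP1-2, and only the sgKEAP1-1 difference passed the test (adjusted p = 0.0001). A frameshift need not lower the RNA, but the edits at KEAP1 were not examined here. With an immunoblot of these cells, the study reported more NRF2 on KEAP1 loss. NQO1, a textbook NRF2 target, was higher with both guides (log2 change 1.19 and 1.36). TFE3 was lower on knockdown in all 3 backgrounds (log2 -1.57 with sgCtrl, -1.74 with sgKEAP1-1 and -1.69 with sgKEAP1-2), and TFEB with both KEAP1 guides (-2.15 and -1.67). With sgCtrl, TFEB was at 2.64 against 10.9 CPM, which did not pass (adjusted p = 0.0858). On the second principal component 2 libraries stood apart. They are replicate 1 of sgKEAP1-1 under siNC and replicate 1 of sgKEAP1-2 under siTFEB/siTFE3. Some results that turn on them are also given without them, and others only with them.

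The members covered a wide range of levels. SCD was the most abundant, with a mean of 978 CPM over the 24 libraries and rank 129 among 11927 features. FASN followed at 664 CPM, ACLY at 337 CPM and FADS1 at 279 CPM. The remaining tested members lay lower, with ELOVL5 at 94.9 CPM, ELOVL6 at 39.1 CPM, FADS2 at 36.5 CPM, ACSS2 at 28.3 CPM and SREBF1 at 21.1 CPM. Between neighbours in this order, ACSS2 and SREBF1 overlapped in all 6 groups, ELOVL6 and FADS2 in 5, FADS2 and ACSS2 in 4, ACLY and FADS1 in 3, and SCD and FASN in 2, while the other pairs did not overlap. ACACA, the gene of the cytosolic acetyl-CoA carboxylase that makes malonyl-CoA, had 0 reads in 17 libraries, 57 reads in all and at most 24 reads in 1 library. It failed the filter on low counts, was not tested and is given no fold change, so 9 of the 10 members were tested.

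**Figure D1:**
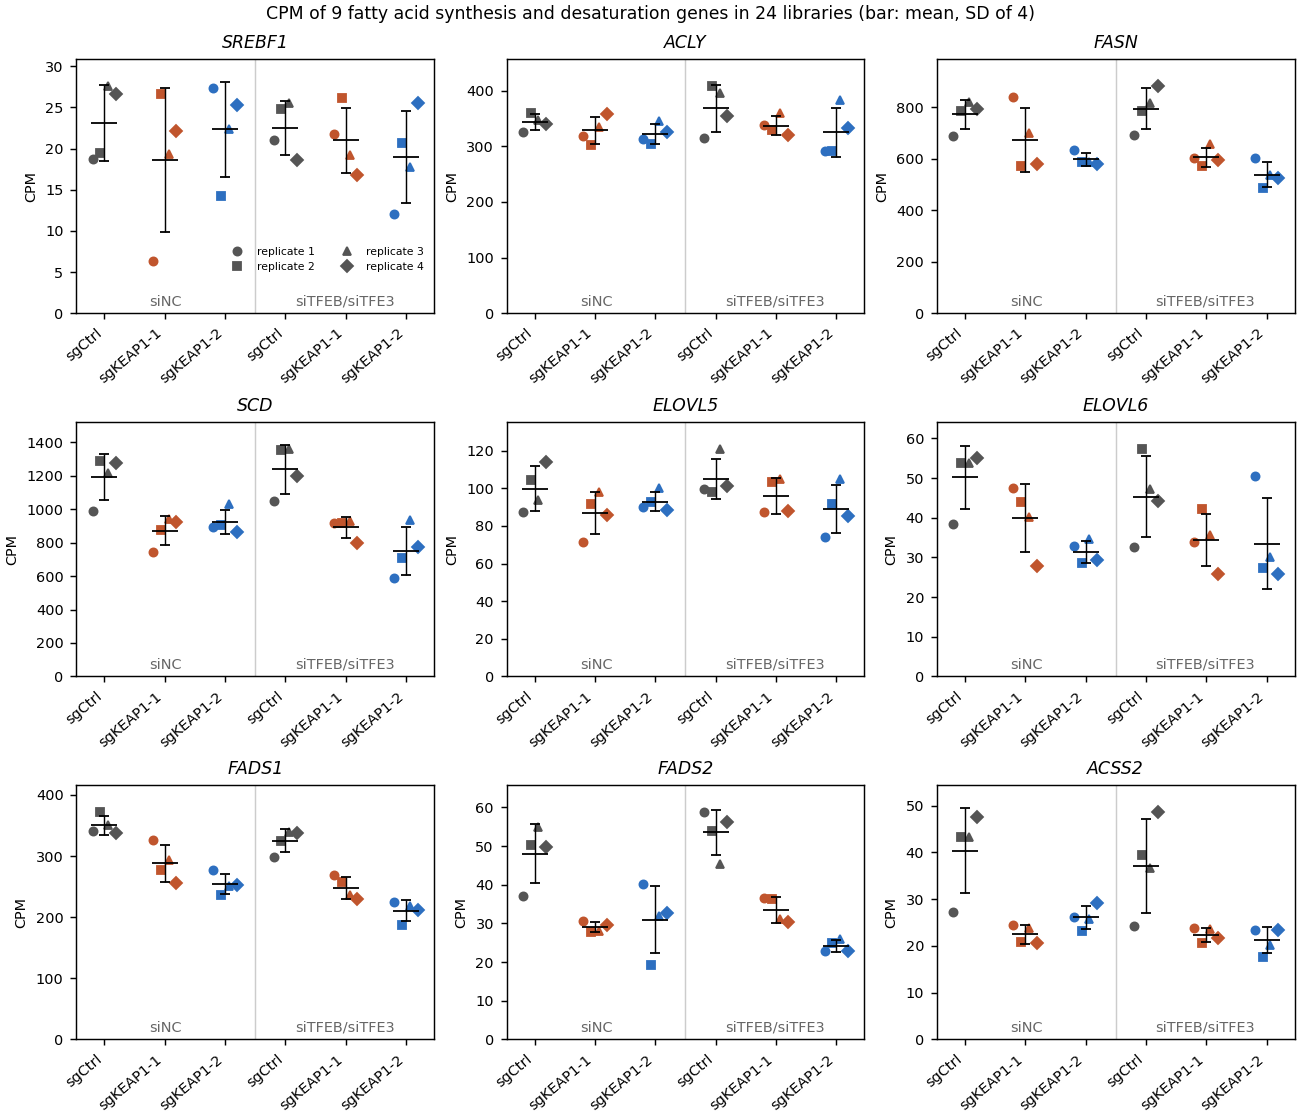
CPM of the 9 tested members in each of the 24 libraries, by guide and siRNA; each marker shape is 1 replicate number, and the bar and whiskers are the mean and SD of 4 libraries. SCD, FADS1, FADS2 and ACSS2 sit lower with both KEAP1 guides than with sgCtrl, while SREBF1 and ACLY overlap between all groups.

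The first comparison asked how the pathway differed between KEAP1-targeted and control cells under siNC. With sgKEAP1-1, 4 of 9 tested members were lower and 0 were higher, and with sgKEAP1-2, 6 of 9 were lower and 0 higher. SCD, FADS1, FADS2 and ACSS2 passed with both guides, and FASN and ELOVL6 with sgKEAP1-2 alone. Among all 11152 genes tested, 10.9% passed with sgKEAP1-1 (6.01% higher and 4.91% lower) and 14.7% with sgKEAP1-2 (7.58% higher and 7.14% lower). The median log2 change of the members was -0.35 and -0.37, against -0.02 and 0.00 over all genes. Both contrasts share the same 4 sgCtrl libraries and are therefore not independent. In bulk RNA, fewer cells of a kind and less RNA per cell cannot be told apart.

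The same comparison under siTFEB/siTFE3 used its own sgCtrl libraries. FASN, SCD, FADS1, FADS2 and ACSS2 were lower with both guides, 5 of 9 members in each contrast, and none was higher. Of all genes, 10.5% passed with sgKEAP1-1 (5.69% higher and 4.81% lower) and 20.2% with sgKEAP1-2 (10.6% higher and 9.59% lower). The median log2 change of the members was -0.39 and -0.56, against 0.00 and 0.01 over all genes. All 9 tested members had a negative log2 change in all 4 contrasts, whether or not they passed. Of all genes, 47.3%, 49.5%, 50.4% and 51.0% had a positive change in the 4 contrasts, siNC first. The share negative in all 4 was not counted, and the 2 contrasts of an siRNA arm share their sgCtrl libraries. Summed over the 10 members, the level was 2921 ± 245 CPM (SD, n = 4) with sgCtrl under siNC, 2357 ± 107 CPM with sgKEAP1-1 and 2303 ± 102 CPM with sgKEAP1-2. Under siTFEB/siTFE3 the sums were 2989 ± 274 CPM, 2290 ± 116 CPM and 2014 ± 188 CPM in the same order, and in both siRNA arms the ranges of the KEAP1 guides lay below that of sgCtrl.

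**Figure D2:**
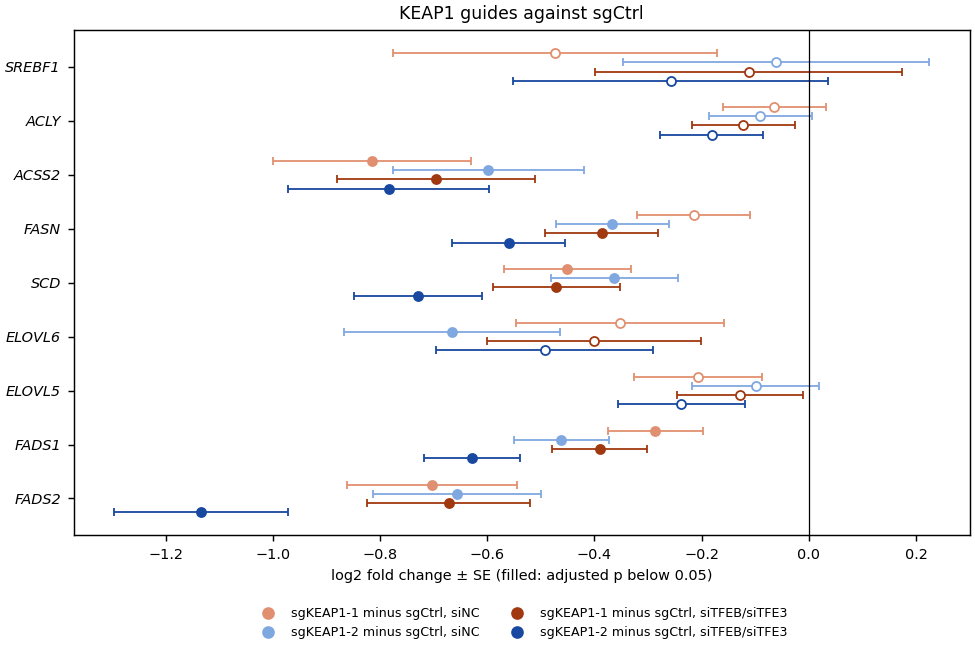
Log2 fold change with its standard error for the 9 tested members, each KEAP1 guide minus sgCtrl under siNC and under siTFEB/siTFE3; filled points have an adjusted p below the threshold of 0.05. All 36 points lie below 0, and those of FADS1, FADS2, SCD and ACSS2 are filled in all 4 contrasts.

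In the GENCODE annotation of GRCh37, with the strand in brackets, the members other than FADS1 and FADS2 lie on 5 chromosomes. Those are SREBF1 at chr17:17713713-17740316 (minus), ACACA at chr17:35441927-35766927 (minus), ACLY at chr17:40023170-40086795 (minus), FASN at chr17:80036214-80056170 (minus), SCD at chr10:102106990-102124583 (plus), ACSS2 at chr20:33459949-33515765 (plus), ELOVL5 at chr6:53132196-53213977 (minus) and ELOVL6 at chr4:110967002-111120355 (minus).

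To show the sequence before these genes, the promoter windows of RefSeq (GRCh38.p14), 250 bases before to 50 after each listed start, were searched on both strands for 5 motifs. Windows were found for 9 members, 14 in all, and FASN had none in the table. Of the 4 members that passed in all 4 contrasts, SCD and ACSS2 are shown, as the 250 bases before the start, because they hold a CCAAT box there, with each box, read on either strand (ATTGG on the opposite one), in capitals. FADS1 and FADS2, the other members that passed in all 4, hold none before the start. The FADS1 window had no match, and 1 of 2 FADS2 windows had 1, at base 6 after the start. The stretch of SCD is chr10:100346983-100347232 (plus strand), and that of ACSS2 chr20:34874739-34874988 (plus strand, 1 of 2 listed starts, the other of which has no CCAAT in its window).
SCD: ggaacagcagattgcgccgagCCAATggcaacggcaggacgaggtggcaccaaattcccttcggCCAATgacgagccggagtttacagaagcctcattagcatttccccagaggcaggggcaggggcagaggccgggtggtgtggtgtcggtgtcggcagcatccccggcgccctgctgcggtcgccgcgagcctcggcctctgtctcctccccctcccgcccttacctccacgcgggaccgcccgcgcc
ACSS2: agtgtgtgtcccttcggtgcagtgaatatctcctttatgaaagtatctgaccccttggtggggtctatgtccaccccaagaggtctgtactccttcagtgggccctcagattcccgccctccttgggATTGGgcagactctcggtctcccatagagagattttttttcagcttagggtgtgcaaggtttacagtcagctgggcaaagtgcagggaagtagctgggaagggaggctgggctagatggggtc
The CCAAT box, bound by NF-Y, a partner of SREBP, was in 8 of 14 member windows, in 34.6% of all 35116 windows and in 35.1% of those of tested genes. GGGCGG, bound by Sp1, was in 11 of 14 member windows (78.6%), in 45.0% of all and in 66.1% of those of tested genes. The windows of ACLY overlap by 229 bases and those of FADS2 by 99, so sites can be counted again. Counted by gene, CCAAT was in 6 of 9 members and 43.5% of tested genes, and GGGCGG in 8 of 9 and 77.2%. These 9 are not the 9 tested members, since they lack FASN and include ACACA, which was not tested. ACACA held CCAAT in 2 of its 3 windows and GGGCGG in 2. Neither TCACNCCAC, a core of the sterol regulatory element, nor TGACNNNGC, the core of the antioxidant response element bound by NRF2, was in any member window. They were in 1.13% and 13.3% of all windows and in 1.11% and 14.7% of those of tested genes. The E-box CACGTG was in 1 member window, that of ELOVL5, in 7.26% of all and in 9.36% of those of tested genes. Of 21 windows found for 16 genes of the list of cholesterol genes compared further on, 16 held CCAAT, 0 held TCACNCCAC and 2 held TGACNNNGC. A match is a description of the letters and not a bound site, and elements farther than 250 bases from a start were not searched.

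ACSS2 is the cytosolic and nuclear acetyl-CoA synthetase, which makes acetyl-CoA from acetate. Under siNC its 4 sgCtrl libraries, replicates 1 to 4, were at 27.2, 43.4, 43.4 and 47.6 CPM, those of sgKEAP1-1 at 24.4, 20.8, 23.9 and 20.7 CPM, and those of sgKEAP1-2 at 26.3, 23.1, 25.8 and 29.2 CPM. The sgKEAP1-1 libraries all lay below sgCtrl, and sgKEAP1-2 overlapped it through sgCtrl replicate 1, the lowest control. The log2 change with sgKEAP1-1 was -0.81 (adjusted p = 0.0038, SE 0.18). That with sgKEAP1-2 was -0.60 (adjusted p = 0.0229, SE 0.18), a call lost without any of sgCtrl replicates 2, 3 and 4 or sgKEAP1-2 replicates 2 and 3 (log2 -0.59 to -0.50). Under siTFEB/siTFE3, sgCtrl libraries were at 24.2, 39.4, 36.6 and 48.6 CPM, against 23.8, 20.7, 23.5 and 21.7 CPM with sgKEAP1-1 and 23.5, 17.7, 20.2 and 23.4 CPM with sgKEAP1-2. Neither KEAP1 guide overlapped sgCtrl there, although replicate 1 came close. With sgKEAP1-1 the log2 change was -0.70 (SE 0.18, adjusted p = 0.0135), and with sgKEAP1-2 it was -0.78 (SE 0.19, adjusted p = 0.0033).

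The change of ACSS2 varied with the replicate number. Compared within a number, 1 library against 1, the 4 differences from sgCtrl in log2 CPM lay between -0.15 and -0.03 in number 1. They lay between -1.13 and -0.89 in number 2, between -0.85 and -0.63 in number 3 and between -1.18 and -0.70 in number 4. ACSS2 was thus lower in 16 of 16 within-number comparisons, as were SCD and FADS1, but ACSS2 by little in number 1. Both KEAP1 guides are set against the same sgCtrl library, so these comparisons are not independent. The sgCtrl libraries of number 1 were the lowest of their group for 8 of the 9 tested members under siNC and for 6 of 9 under siTFEB/siTFE3. Each count scores 1 library on genes that vary together. It was not made over all genes, so whether it is particular to the members is not shown. Over the 9 members and 4 contrasts the median within-number difference was -0.15 in number 1, with 27 of 36 below 0, and -0.47, -0.48 and -0.56 in numbers 2, 3 and 4, with 33, 34 and 34 of 36 below 0. The 36 differences of a number come from its 6 libraries and from genes that vary together, so they are not replicates. For these within-number comparisons the share of all genes below 0 was not counted. In the count table the libraries of 1 number share a column-name prefix across all 6 groups, and the labels do not say what the number or the prefix stands for. With the number as a block in the fit, 4, 6, 5 and 5 members were lower, as many as without it. With all 6 libraries of number 1 left out, 6 members (FASN, SCD, ELOVL6, FADS1, FADS2 and ACSS2) were lower in each of the 4 contrasts. Leaving out another number lowered the counts instead, in the order sgKEAP1-1 and sgKEAP1-2 under siNC and then under siTFEB/siTFE3, to 1, 1, 2 and 4 without number 2, to 1, 1, 1 and 4 without number 3 and to 0, 2, 0 and 5 without number 4. The share of all genes that passed in these fits is not reported here, so whether calls changed alike for all genes is not shown.

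**Figure D3:**
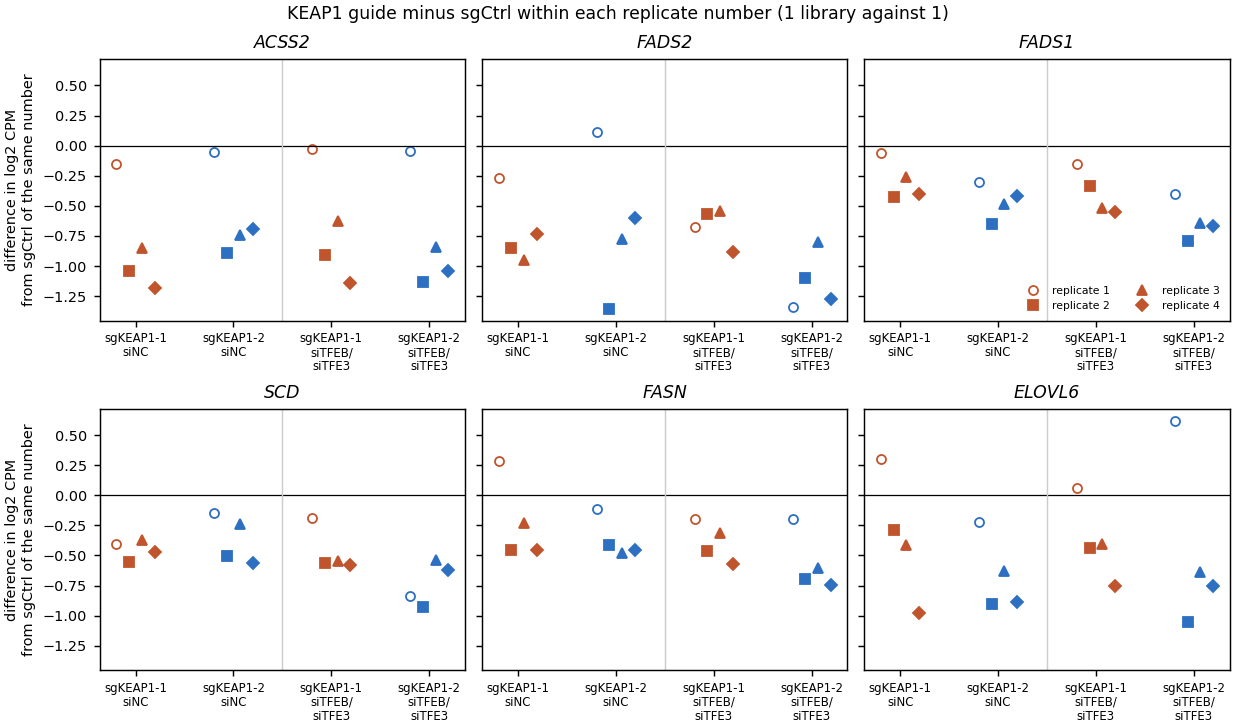
Difference in log2 CPM between the KEAP1-guide library and the sgCtrl library of the same replicate number, for 6 members; open circles are number 1, filled shapes numbers 2 to 4. For ACSS2 the open circles lie between -0.15 and -0.03, apart from the filled points, and for ELOVL6 3 of 4 open circles lie above 0.

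ACLY makes acetyl-CoA from citrate and so feeds the same pool as ACSS2. Its group means ran from 322 to 343 CPM under siNC and from 325 to 368 CPM under siTFEB/siTFE3, with overlapping groups throughout. The log2 changes were -0.06, -0.09, -0.12 and -0.18 in the 4 contrasts, and none passed the test.

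FASN encodes fatty acid synthase, which builds palmitate from acetyl-CoA and malonyl-CoA with NADPH. Under siNC it was at 689.6, 785, 822 and 794 CPM with sgCtrl, at 839, 572, 700.1 and 579.8 CPM with sgKEAP1-1 and at 636, 588, 588 and 581 CPM with sgKEAP1-2. All sgKEAP1-2 libraries lay below sgCtrl, while sgKEAP1-1 overlapped it through replicates 1 and 3. Replicate 1 lay above every control and is one of the libraries that stood apart. With sgKEAP1-1 the log2 change of -0.21 (SE 0.11, adjusted p = 0.22) did not pass, and without replicate 1 of that group it was -0.32 and passed. With sgKEAP1-2 it was -0.37 (SE 0.11, adjusted p = 0.0177), a call lost without sgCtrl replicate 3 or sgKEAP1-2 replicate 3 or 4 (log2 -0.35 to -0.33). Under siTFEB/siTFE3, FASN was at 692, 787, 818 and 882 CPM with sgCtrl, at 602, 572, 659 and 594 CPM with sgKEAP1-1 and at 604, 487, 539 and 526 CPM with sgKEAP1-2. Neither guide overlapped sgCtrl in that arm. For sgKEAP1-1 the log2 change came to -0.39 (adjusted p = 0.0161, SE 0.11), and for sgKEAP1-2 to -0.56 (adjusted p = 0.0003, SE 0.11).

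SCD is the stearoyl-CoA desaturase that places the first double bond in saturated chains. Under siNC it was at 989, 1287, 1216 and 1276 CPM with sgCtrl, at 746, 877, 939.6 and 920.4 CPM with sgKEAP1-1 and at 892, 905, 1032 and 865 CPM with sgKEAP1-2. The sgKEAP1-1 libraries all lay below sgCtrl, and 1 sgKEAP1-2 library lay above the lowest control. The test gave a log2 change of -0.45 for sgKEAP1-1 (SE 0.12, adjusted p = 0.0126) and of -0.36 for sgKEAP1-2 (SE 0.12, adjusted p = 0.0381). The sgKEAP1-2 call was lost in 14 of the 24 fits that left out 1 library (log2 -0.36 to -0.32), and the sgKEAP1-1 call without sgCtrl replicate 2 or 4 (-0.41). Under siTFEB/siTFE3 it was at 1047, 1352, 1357 and 1195 CPM with sgCtrl, at 917, 915, 929 and 800.4 CPM with sgKEAP1-1 and at 588, 710.3, 933 and 776 CPM with sgKEAP1-2. Both guides lay wholly below sgCtrl, and the lowest library was sgKEAP1-2 replicate 1, which stood apart. With sgKEAP1-1 the log2 change was -0.47 (SE 0.12, adjusted p = 0.009), and with sgKEAP1-2 it was -0.73 (SE 0.12, adjusted p = 5.55e-05).

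FADS1 and FADS2 encode the delta-5 and delta-6 desaturases of polyunsaturated fatty acid synthesis and lie together on chromosome 11. In the GENCODE annotation of GRCh37, FADS1 spans chr11:61567099-61596790 on the minus strand, within the span of FADS2 at chr11:61560452-61634826 on the plus strand. The strand setting of the counting is not given in the sources used here, so reads in the overlap may have been assigned to either gene or left uncounted. Under siNC, FADS1 was at 341, 371, 350.3 and 338 CPM with sgCtrl, at 327, 277, 293 and 256 CPM with sgKEAP1-1 and at 277, 237, 251 and 253 CPM with sgKEAP1-2. No library of either KEAP1 guide reached the lowest control. For sgKEAP1-1 the log2 change came to -0.29 (adjusted p = 0.0338, SE 0.09), and for sgKEAP1-2 to -0.46 (adjusted p = 0.0005, SE 0.09). With sgKEAP1-1 the call was lost without any 1 of the 4 sgCtrl libraries, sgKEAP1-1 replicates 2, 3 or 4, or sgKEAP1-2 replicate 4 (log2 -0.30 to -0.22). Under siTFEB/siTFE3, FADS1 was at 299, 324, 339 and 337 CPM with sgCtrl, at 269, 257, 237 and 229.5 CPM with sgKEAP1-1 and at 226, 187, 218 and 212 CPM with sgKEAP1-2. The groups again did not overlap, and the test gave a log2 change of -0.39 for sgKEAP1-1 (SE 0.09, adjusted p = 0.0037) and of -0.63 for sgKEAP1-2 (SE 0.09, adjusted p = 8.8e-06).

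FADS2, at a much lower level than its neighbour in CPM, had the largest change of any member in 1 contrast, sgKEAP1-2 under siTFEB/siTFE3. Under siNC it was at 37.1, 50.4, 54.8 and 49.8 CPM with sgCtrl, at 30.7, 27.8, 28.2 and 29.7 CPM with sgKEAP1-1 and at 40.1, 19.4, 31.9 and 32.7 CPM with sgKEAP1-2. The sgKEAP1-2 libraries were the most scattered, and their replicate 1 lay above the lowest control. With sgKEAP1-1 the log2 change was -0.70 (SE 0.16, adjusted p = 0.0036), and with sgKEAP1-2 it was -0.66 (SE 0.16, adjusted p = 0.0048). Under siTFEB/siTFE3 it was at 58.7, 53.8, 45.4 and 56.2 CPM with sgCtrl, at 36.5, 36.2, 31.0 and 30.3 CPM with sgKEAP1-1 and at 22.9, 24.8, 25.9 and 22.9 CPM with sgKEAP1-2. Here the 3 guides formed separate ranges, with sgKEAP1-2 lowest. For sgKEAP1-1 the log2 change came to -0.67 (adjusted p = 0.0035, SE 0.15), and for sgKEAP1-2 to -1.13 (adjusted p = 9.28e-06, SE 0.16), the second a level 54.4% below sgCtrl.

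Of the elongases, ELOVL6 passed in 1 contrast and ELOVL5 in none. ELOVL6, which extends palmitate to stearate, was at 38.4, 53.9, 53.7 and 55.0 CPM with sgCtrl under siNC, at 47.4, 43.9, 40.2 and 27.7 CPM with sgKEAP1-1 and at 32.8, 28.5, 34.6 and 29.5 CPM with sgKEAP1-2. Only the sgKEAP1-2 libraries lay wholly below sgCtrl, and only their log2 change of -0.67 (SE 0.20, adjusted p = 0.0242) passed, which it did not without sgCtrl replicates 2, 3 or 4 or sgKEAP1-2 replicates 2 or 4 (-0.63 to -0.61). Under siTFEB/siTFE3 the values of -0.40 and -0.49 did not pass (adjusted p = 0.243 and 0.0869), and sgKEAP1-2 replicate 1, which stood apart, was at 50.4 CPM against 25.9 to 30.2 CPM in the other 3. Without that library the sgKEAP1-2 change was -0.68 and passed, and without sgCtrl replicate 1 of that arm it was -0.63 and passed. ELOVL5, which extends polyunsaturated chains, had group means between 86.8 and 105 CPM and overlapping groups. Its log2 changes were -0.21, -0.10, -0.13 and -0.24, and none passed. Whether the effect differs between members was not tested.

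SREBF1 encodes SREBP-1, the transcription factor that drives these genes in liver. It was at 18.8, 19.4, 27.6 and 26.6 CPM with sgCtrl under siNC, at 6.30, 26.7, 19.4 and 22.2 CPM with sgKEAP1-1 and at 27.4, 14.3, 22.4 and 25.3 CPM with sgKEAP1-2. The groups overlapped, and the low value came from sgKEAP1-1 replicate 1, which stood apart. The log2 changes of -0.47 (SE 0.30) and -0.06 (SE 0.29) did not pass, nor did those of -0.11 and -0.26 under siTFEB/siTFE3. These standard errors were the largest of the 9 members. Without sgKEAP1-1 replicate 1 under siNC the -0.47 became -0.014, and without sgKEAP1-2 replicate 1 under siTFEB/siTFE3 the -0.26 became -0.089. The count covers RNA of both SREBP-1 isoforms and says nothing of the processed protein.

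The guides were then compared with each other, averaged over both siRNAs. None of the 9 members passed in limma-voom, edgeR or DESeq2. Of all 11152 tested genes, 0.117% passed in limma-voom and 951 had an unadjusted p under 0.05. Among the members 2 had such a p. These were FADS1, with a log2 difference sgKEAP1-2 minus sgKEAP1-1 of -0.21 (SE 0.06, adjusted p = 0.289), and FASN, at -0.16 (SE 0.07, adjusted p = 0.544). The standard error was largest for SREBF1, at 0.21.

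Knockdown of TFEB and TFE3 was the next comparison, since the study asked which effects of KEAP1 loss need these factors. No member passed in any background with limma-voom, edgeR or DESeq2. Of all genes, 0.0179% passed with sgCtrl, 0.0897% with sgKEAP1-1 and 0.359% with sgKEAP1-2. At an unadjusted p under 0.05 there were 0 members with sgCtrl, 1 with sgKEAP1-1 (FADS1) and 2 with sgKEAP1-2 (FADS1 and SCD). Of all 11152 tested genes, 516, 901 and 1169 had such a p, in the same order. FADS1 had a log2 difference of -0.11 (SE 0.09) with sgCtrl, -0.21 (SE 0.09, adjusted p = 0.549) with sgKEAP1-1 and -0.28 (SE 0.09, adjusted p = 0.236) with sgKEAP1-2. In the last background its 4 knockdown libraries, at 187 to 226 CPM, lay below the 4 siNC libraries, at 237 to 277 CPM. FADS1 was the only member without overlap in a knockdown contrast, but the share of all genes without overlap was not counted. SCD with sgKEAP1-2 had a log2 difference of -0.31 (SE 0.12, adjusted p = 0.313), with overlapping groups, and of -0.20 without sgKEAP1-2 replicate 1 under siTFEB/siTFE3. Across members the values ran from -0.16 to 0.16 with sgCtrl, from -0.21 to 0.34 with sgKEAP1-1 and from -0.31 to 0.02 with sgKEAP1-2. The 0.34 is SREBF1, which was at -0.12 without sgKEAP1-1 replicate 1 under siNC, and the 0.02 is ELOVL6, which was at -0.17 without sgKEAP1-2 replicate 1 under siTFEB/siTFE3. The members' medians were 0.04, 0.03 and -0.22, against 0.00, 0.01 and 0.01 over all genes.

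**Figure D4:**
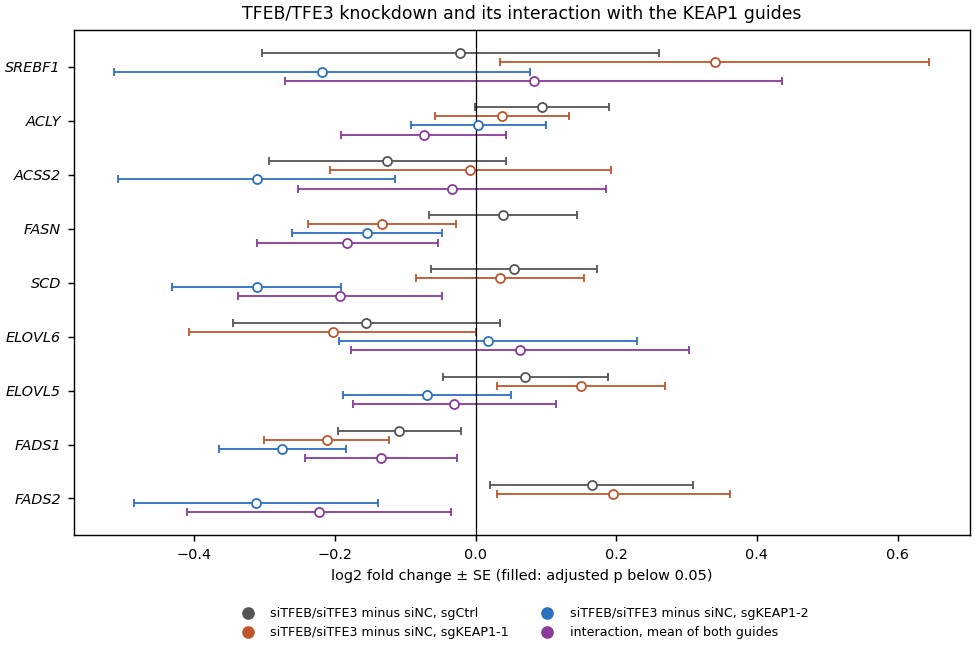
Log2 difference between siTFEB/siTFE3 and siNC with its standard error in each guide background, and the interaction averaged over both KEAP1 guides, for the 9 tested members. No point is filled, so none passed; with sgKEAP1-2 the points of FADS1, SCD, FADS2 and ACSS2 lie between -0.31 and -0.28.

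The interaction is the KEAP1-guide change under siTFEB/siTFE3 minus that under siNC. It passed for 0% of genes with sgKEAP1-1, 0% with sgKEAP1-2 and 0% for the mean of both, and for no member in limma-voom, edgeR or DESeq2. With sgKEAP1-2, FADS2 was at -0.48 (SE 0.23, unadjusted p = 0.0441, adjusted p = 0.991) and SCD at -0.37 (SE 0.17, unadjusted p = 0.0387, adjusted p = 0.991), the only members under 0.05 before adjustment in any of the 3 interactions. The larger changes of these genes with sgKEAP1-2 under siTFEB/siTFE3 than under siNC therefore did not pass as a difference. The SCD value includes sgKEAP1-2 replicate 1 under siTFEB/siTFE3, the lowest SCD library of its group, which stood apart. Of all 11152 tested genes, 304 were under 0.05 before adjustment with sgKEAP1-1, 454 with sgKEAP1-2 and 349 for the mean of both. Averaged over both guides the members' values ran from -0.22 to 0.08, the latter for SREBF1, which was at -0.15 without sgKEAP1-1 replicate 1 under siNC.

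Members also varied together to different degrees. Over the 24 libraries, which share the guide difference, Pearson's r of log2 CPM between the 36 pairs of tested members had a median of 0.53 and extremes of -0.14 and 0.90, and 34 pairs were above 0. With each group's mean taken out, the median was 0.19 and the extremes were -0.58 and 0.81. FASN and FADS1 had the highest r over all libraries (0.90, and 0.70 within groups), and ACLY and SCD the highest within groups (0.81). FASN and SREBF1 had the lowest, at -0.14 and -0.58. In both libraries that stood apart SREBF1 was the lowest and FASN the highest of its group, and no r is given without them. Genes outside the members were ranked by the same r. Among the 3 most like FADS2 were MSMO1 (0.92) and FDFT1 (0.90), both on the cholesterol list described next. Those most like SCD were AGT (0.96), AFMID (0.94) and SERPINA7 (0.93), those most like FASN were THEM6 (0.94), FGA (0.92) and PGRMC2 (0.92), and those most like FADS1 were DUSP9 (0.95), RBP4 (0.94) and SCARA3 (0.93). AGT, SERPINA7, FGA and RBP4 encode proteins that hepatocytes secrete. ACSS2 was most like ACSM3 (0.92), SERPINF1 (0.92) and NAALADL1 (0.92), and SREBF1 most like SLC35B2 (0.91), TP53INP2 (0.91) and SLC25A5 (0.89). The nearest genes of ACLY were GMPR2 (0.81), SLC22A5 (0.79) and MALSU1 (0.76), of ELOVL5 ASGR1 (0.79), C1orf226 (0.79) and COL9A3 (0.79), and of ELOVL6 AOC3 (0.84), ABCB4 (0.83) and NAB1 (0.82).

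Genes of cholesterol synthesis and uptake, the targets of SREBP-2, were set beside the members. Of 21 tested, 16 were lower with sgKEAP1-1 and 16 with sgKEAP1-2 under siNC, 14 of them with both, and none was higher. The list's median log2 change was -0.67 and -0.72 under siNC, and -0.74 and -0.996 under siTFEB/siTFE3, where 15 and 17 were lower and 0 and 1 higher. HMGCS1, the synthase that makes HMG-CoA, had a log2 change of -1.004 and -1.13 under siNC. The squalene epoxidase gene SQLE had -0.77 and -0.80, and the sterol oxidase gene MSMO1 -0.72 and -0.72. The difference between this list and the members was not tested.

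**Figure D5:**
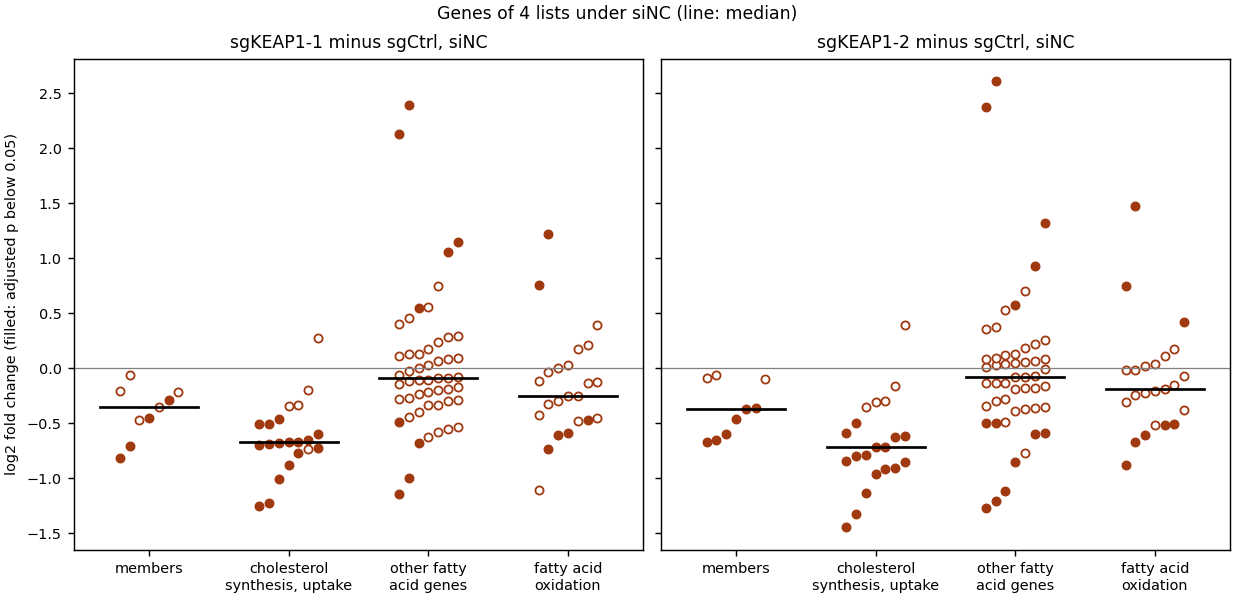
Log2 fold change of the tested genes of 4 lists, each KEAP1 guide minus sgCtrl under siNC; filled points passed the threshold and lines are medians. The cholesterol list has its median at -0.67 and -0.72, the members at -0.35 and -0.37, the other fatty acid genes at -0.09 and -0.08 and fatty acid oxidation at -0.25 and -0.18.

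A further 58 genes of fatty acid and glycerolipid synthesis in 8 lists had 54 genes in the table and 51 tested. Under siNC, 5 were higher and 4 lower with sgKEAP1-1, and 5 higher and 8 lower with sgKEAP1-2. Under siTFEB/siTFE3, 5 were higher and 8 lower, and 5 higher and 17 lower. Those that moved upward with both guides under siNC included PGD (log2 1.15 and 1.32), an NADPH-making enzyme and known NRF2 target. The fatty acid transporter gene CD36 (2.39 and 2.61), the acyltransferase gene AGPAT2 (2.13 and 2.37) and the elongation dehydratase gene HACD1 (0.55 and 0.57) were also higher. CD36 and AGPAT2 were low with sgCtrl, at 3.22 and 1.38 CPM.

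Lower with both guides under siNC were ELOVL2 (log2 -1.14 and -1.27), an elongase of long polyunsaturated chains, and MID1IP1 (-0.997 and -1.21), which promotes polymerisation of acetyl-CoA carboxylase. GPAM (-0.68 and -0.60) and DGAT2 (-0.49 and -0.50), which open and close triglyceride synthesis, were lower as well. In the list on control of SREBP1, 0 and 1 of 10 tested genes were lower under siNC and 3 and 3 under siTFEB/siTFE3, with 1 higher in the last contrast and 0 in the others. Under siTFEB/siTFE3, MLXIPL, which encodes ChREBP, RXRA and SREBF2 were lower with both guides (MLXIPL -1.16 and -1.39). By list, in the order sgKEAP1-1 and sgKEAP1-2 under siNC and then under siTFEB/siTFE3, acetyl-CoA and NADPH supply (4 tested) had 2 genes higher in each contrast and 2 lower in the last. Malonyl-CoA (3 tested) had 1, 1, 1 and 2 lower, and elongation (8 tested) 1, 1, 1 and 0 higher and 1, 3, 1 and 5 lower. Activation and uptake (8 tested) had 1 higher in each contrast, and glycerolipid synthesis (8 tested) 1 higher in each and 2, 3, 3 and 3 lower. No gene of mitochondrial fatty acid synthesis passed in the 4 contrasts, and of 4 tested partners of desaturation 0, 0, 0 and 2 were lower.

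Of these 51 genes 1 passed on knockdown, CYB5B, which encodes an outer mitochondrial membrane cytochrome b5, with sgKEAP1-2 (log2 -0.61, adjusted p = 0.0419). Among 23 tested genes of fatty acid oxidation, ACADSB, a branched short-chain acyl-CoA dehydrogenase, was lower on knockdown with sgKEAP1-2 (log2 -0.56, adjusted p = 0.0461). Under siNC the KEAP1 guides gave 2 higher and 4 lower genes of oxidation with sgKEAP1-1 and 3 higher and 5 lower with sgKEAP1-2. CPT1A, which carries fatty acids into mitochondria, was higher (log2 1.22 and 1.47), as was ETFB (0.76 and 0.75), while HADH (-0.74 and -0.88), ACADSB (-0.61 and -0.51) and ACAA1 (-0.47 and -0.61) were lower. Of 5 tested LXR targets outside fatty acid synthesis, 0, 1, 0 and 0 were higher and 1, 0, 1 and 2 lower in the 4 contrasts, and ABCA1, a cholesterol exporter, was lower with both under siTFEB/siTFE3 (-0.51 and -0.47).

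Hepatocyte markers moved with the guides as well. Their summed level was 25492 to 34412 CPM with sgCtrl under siNC, 16191 to 17512 CPM with sgKEAP1-1 and 15116 to 16098 CPM with sgKEAP1-2, and 6 and 5 of 9 markers were lower. Under siTFEB/siTFE3 the sum ran from 23464 to 32144 CPM with sgCtrl, from 16282 to 17304 CPM with sgKEAP1-1 and from 12948 to 19361 CPM with sgKEAP1-2, with 6 and 6 lower. ALB had a log2 change of -1.28 and -1.21 under siNC. The part of this difference in the members' values was not tested. The 2 markers of other cell types in the table, CD68 and ACTA2, summed to between 40.6 and 67.4 CPM in all libraries, with no call in the 4 contrasts.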

How the data were processed

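RNA of HepG2 cells was measured in 24 libraries of 6 groups. The methods of the study describe QuantSeq 3′ libraries read from 1 end, adapter trimming with Cutadapt, alignment with STAR, and counting with featureCounts in Galaxy. The methods name hg19 (GRCh37), whereas the submitters' processing notes name hg38, with FastQC 0.72, cutadapt 1.16, STAR 2.7.5b, featureCounts 1.6.3 and limma 3.40.6. The annotation and the strand setting are not given in the sources used here. The values the authors deposited are raw read counts per gene, with no normalisation. The 13446 rows include 1414 without a gene ID (1.35% to 2.57% of the reads of a library), which were left out. Rows sharing an ID were summed, and IDs with identical counts in all libraries were kept as 1 feature. Totals of 3527000 to 4600951 reads per library limit the precision of the members with few reads (SREBF1 had 25 to 113).

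Counts were filtered with filterByExpr by group (11152 genes), scaled with TMM and fitted with the voom method of limma 3.58.1, in R 4.3.3 with edgeR 4.0.16, as 6 group means over 24 libraries without covariates and 11 contrasts. Tests were two-sided and adjusted by the Benjamini-Hochberg method within each contrast over every tested gene, and 0.05 was the threshold. CPM uses the TMM-scaled library size, and log2 CPM a prior count of 2. Alternatives were edgeR's quasi-likelihood test, DESeq2 1.42.0, other scalings, filters and weights, the groups compared alone, a replicate block, and leaving out libraries. The members, lists and alternatives were chosen with earlier results of these data known. Named were all members, up to 10 genes of the other fatty acid lists and up to 5 of each comparison list that passed with both guides under siNC, ranked by the smaller change, every list gene that passed on knockdown, and the 3 genes most like each member by Pearson's r. Some genes that this rule names are not reported here. MLXIPL, RXRA, SREBF2, ABCA1 and ALB were named after their values were seen.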

Additional observations from a re-analysis of the deposited data

Results flagged for a closer look

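In 4 of 54 sets of 4 libraries (9 members in 6 groups), 1 library lay farther from the others than Dixon's 95% limit allows, and chance alone flags about 1 set in 20. The FASN level in siNC; sgKEAP1-2 was highest in replicate 1, at 636 CPM against 588 CPM in the next library. The SCD level in siTFEB/siTFE3; sgKEAP1-1 was lowest in replicate 4, at 800.4 CPM against 915 CPM in the next. For ELOVL5 in siTFEB/siTFE3; sgCtrl, replicate 3 was highest, at 121 CPM against 101 CPM. For ELOVL6 in siNC; sgCtrl, replicate 1 was lowest, at 38.4 CPM against 53.7 CPM. The interaction of guide and knockdown passed for no member.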

How the results depend on the processing

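Under 9 other choices of tool, scaling, filter, weights, samples fitted or block, the number of members lower with sgKEAP1-1 under siNC was 3 to 5 against 4, and with sgKEAP1-2 6 in each. Under siTFEB/siTFE3 it was 5 to 6 against 5 with either guide, and no contrast gave a higher member. For these settings the number of all genes called is given here only for the replicate block. FADS1 with sgKEAP1-1 under siNC lost its call when only the groups compared were fitted. No knockdown, guide or interaction contrast called a member under any setting. Leaving out both libraries that stood apart, chosen after seeing the data, gave 5, 6, 5 and 6 members in the 4 contrasts. The share of all genes called without them is not reported here, so whether calls rose alike for all genes is not shown. No other scaling moved the median of all genes by over 0.1 (log2). The replicate block gave 4, 6, 5 and 5 members and 0 in the other contrasts. It called 1454, 1902, 1381 and 2480 genes, against 1218, 1641, 1170 and 2253 without it. The correlation of deviations of the 60 same-numbered pairs ranged from -0.16 to 0.43, with a median of 0.05, against -0.02 for differently numbered pairs. Of 24 libraries, 15 correlated best with their own number, so same-numbered libraries were somewhat more alike. Same-numbered columns share a name prefix, but the labels do not say what it stands for. The main fit therefore did not pair the samples, and the block is given beside it.

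Leaving out libraries changed the counts more. With 1 library or 1 replicate number left out, the number of members lower was 0 to 6 with sgKEAP1-1 and 1 to 6 with sgKEAP1-2 under siNC, 0 to 6 and 4 to 6 under siTFEB/siTFE3, and 0 in every knockdown, guide and interaction contrast. The low counts came without number 2 (1, 1, 2 and 4), 3 (1, 1, 1 and 4) or 4 (0, 2, 0 and 5), settings with 18 libraries. The share of all genes called in those settings is not reported here. Leaving out single libraries gave 2 to 5, 2 to 6, 3 to 5 and 5 to 6, also without the share of all genes. SCD with sgKEAP1-2 under siNC lost its call in 14 of 24 such settings (log2 -0.36 to -0.32), including without siNC; sgCtrl replicates 2, 3 or 4 and sgKEAP1-2 replicates 1, 2 or 4, and 8 libraries of groups outside the contrast. FADS1 with sgKEAP1-1 under siNC lost it in 8 (-0.30 to -0.22), which were any sgCtrl library, sgKEAP1-1 replicates 2, 3 and 4 and sgKEAP1-2 replicate 4. With sgKEAP1-2 under siNC, ACSS2 (-0.59 to -0.50) and ELOVL6 (-0.63 to -0.61) each lost it in 5, among them sgCtrl replicates 2, 3 or 4, and FASN in 3 (-0.35 to -0.33). SCD with sgKEAP1-1 lost it without sgCtrl replicate 2 or 4 (-0.41). Under siTFEB/siTFE3 with sgKEAP1-1, FASN lost it without sgCtrl replicate 3 or 4 or sgKEAP1-1 replicate 2 (-0.37 to -0.33), ACSS2 without sgCtrl replicate 4 or sgKEAP1-1 replicate 2 (-0.55 and -0.66) and SCD without sgKEAP1-1 replicate 4 (-0.42). FADS2 kept its call in every single-library setting, and FADS1, FADS2, SCD, FASN and ACSS2 did so with sgKEAP1-2 under siTFEB/siTFE3. ACLY passed there without sgKEAP1-2 replicate 3 (-0.29). Among the members tested, SREBF1 had the fewest reads (25 to 113 a library) and the largest standard errors, and ACACA failed the filter on low counts.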
